A study of Mus musculus with 6 samples.

Results

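The claudins and tight junction genes described here are 9 genes, the claudins Cldn1, Cldn3, Cldn4, Cldn7, Cldn8, Cldn10 and Cldn23 and the junction genes Ocln and Tjp1. They were chosen by name with earlier results of these data known, so counts over them are descriptions. Each was read on the probe sets that the array annotation pairs with that symbol alone. Of 19938 genes with such a probe set, all 9 were found, on 10 of the 35557 probe sets in the table. Cldn10 had 2 probe sets and the other members had 1 each. Where a gene had several, the probe set with the highest mean over the 6 arrays was used.

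RNA of the whole cornea, taken from mouse pups at postnatal day 3, was measured on Affymetrix Mouse Gene 1.0 ST arrays, with 3 arrays of wild-type (WT) pups and 3 of littermates carrying the K14-DN-Clim transgene (DN-Clim). This transgene places a dominant-negative form of CLIM, a cofactor that binds LIM-domain transcription regulators, under the keratin 14 promoter, which is active in the basal cells of stratified epithelia. The RNA holds epithelium, stroma and endothelium together, so that fewer cells of a type and less RNA per cell cannot be told apart. Whether a replicate was 1 pup or a pool is not stated in the labels. The p-values therefore measure only how far these samples spread, which can be technical.

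Tight junctions are belts of membrane strands that close the space between neighbouring epithelial cells. Claudins are membrane proteins that form the strands, and the mix of claudins sets how tight the belt is and which ions pass. Occludin, encoded by Ocln, lies in the same strands, and the scaffold ZO-1, encoded by Tjp1, ties them to actin. In the mature cornea the sealing junctions lie between the superficial epithelial cells, and leakier ones join the cells of the endothelium. Where junctions lay at postnatal day 3 was not measured here.

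RefSeq promoter windows (build GRCm38.p6) were at hand for 7 of the 9 members, all but Cldn8 and Cldn23. The windows of 4 members are shown over the 250 bases before the outermost start site. Cldn7 is shown as the lowest member in DN-Clim with a window, Cldn3 and Cldn4 as neighbouring genes with similar profiles over the arrays, and Cldn1 for its match to the core that LIM homeodomain factors bind. Capitals mark matches on either strand to CAGGTG (an E-box of Snail and Zeb repressors), AACCGGTT (Grainyhead factors), TAATTA (the LIM homeodomain core), GGGCGG (the GC box) and TGANTCA (AP-1). No matches shown overlap each other.
Cldn7, chr11:69964529-69964778, plus strand: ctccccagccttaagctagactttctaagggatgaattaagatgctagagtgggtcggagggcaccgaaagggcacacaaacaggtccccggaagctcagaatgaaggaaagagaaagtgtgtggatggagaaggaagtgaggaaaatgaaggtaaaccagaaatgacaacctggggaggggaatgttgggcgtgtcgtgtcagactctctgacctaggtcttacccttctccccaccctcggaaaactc
Cldn3, chr5:134985964-134986213, plus strand: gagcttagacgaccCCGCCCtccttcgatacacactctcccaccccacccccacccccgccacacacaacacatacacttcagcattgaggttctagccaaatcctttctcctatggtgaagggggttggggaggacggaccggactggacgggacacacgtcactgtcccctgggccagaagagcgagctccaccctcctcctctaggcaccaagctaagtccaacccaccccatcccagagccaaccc
Cldn4, chr5:134946935-134947184, minus strand: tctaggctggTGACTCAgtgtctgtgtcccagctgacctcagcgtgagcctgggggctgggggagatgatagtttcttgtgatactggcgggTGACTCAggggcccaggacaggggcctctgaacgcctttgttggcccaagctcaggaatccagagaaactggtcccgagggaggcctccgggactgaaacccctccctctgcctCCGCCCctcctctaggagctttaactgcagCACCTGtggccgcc
Cldn1, chr16:26371840-26372089, minus strand: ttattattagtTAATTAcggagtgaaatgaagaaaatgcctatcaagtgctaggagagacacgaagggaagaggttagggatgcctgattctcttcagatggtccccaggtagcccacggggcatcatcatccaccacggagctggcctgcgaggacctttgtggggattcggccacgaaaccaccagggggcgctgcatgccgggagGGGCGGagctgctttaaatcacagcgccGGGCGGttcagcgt

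Over the 7 outermost windows the GC box was found in 5 (Cldn1, Cldn3, Cldn4, Ocln and Tjp1), and 32.7% of all 32851 windows of this length hold it. The E-box was found in 1, that of Cldn4, against 17.2% of all windows. The AP-1 motif was also found in 1, again that of Cldn4, which holds 2 copies, against 6.75% of all windows. TAATTA was found in 2, those of Cldn1 and Cldn10, against 4.84%, and AACCGGTT in 0, against 0.116%. The outermost Cldn7 window held none of the 5 motifs. Cldn7, Ocln and Cldn10 each have a further start site with a window of its own, not counted here. Those of Cldn7 and Ocln each held 2 E-boxes and 1 GC box, and that of Cldn10 held 3 GC boxes. A match is a string of letters and not a known site.

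The 3 DN-Clim arrays were not alike. Lens genes (20 matched, 19 with a difference above 0) summed to intensities of 171590 and 177838 in replicates 1 and 2 of DN-Clim and to 5124 in replicate 3, beside 7286 to 13039 in WT, although the labels state that non-corneal tissue was removed. Over the probe sets tested, replicate 3 had a correlation of 0.949 or more with each WT array and of 0.928 or less with the other DN-Clim arrays. Results are therefore given with all 6 arrays and, further down, without replicate 3 and for it alone.

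Cldn8 was the member with the largest difference. It encodes a claudin best known from the distal nephron and colon, where it tightens the junction. Its intensities, in the linear units of the deposited table, were 240.1, 207.9 and 187.2 on WT replicates 1, 2 and 3, against 38.0, 84.1 and 56.5 on the DN-Clim replicates in the same order. Every value of DN-Clim was lower than every value of WT, with a gap from 84.1 to 187.2 between them. From here on, levels are log2(intensity + 16) and differences are DN-Clim minus WT on that scale, which understates the change of dim genes.

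On this scale Cldn8 went from 7.82 ± 0.17 (SD, n = 3) to 6.19 ± 0.45 (SD, n = 3). The difference was -1.63 (SE 0.245, 95% interval -2.18 to -1.08), or 3.10-fold lower with an interval of 2.11 to 4.54. It was the 39th lowest difference of the 23410 probe sets tested. The limma adjusted p was 0.186 after Benjamini-Hochberg adjustment over all 23410 probe sets, so Cldn8 did not pass the threshold of 0.05. An exact two-sided permutation test of Cldn8 alone gave p = 0.1, the smallest value that 3 arrays against 3 allow. Any gene whose groups do not overlap gets this value, as Cldn7 and Tjp1 did, so it adds nothing to the gap above.

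None of the 9 members passed the adjusted threshold with all 6 arrays, where 0.0128% of all probe sets (3 of 23410) did. At an unadjusted limma p under 0.05 there were 3 members, Cldn7, Cldn8 and Ocln, all lower, where 5.94% of probe sets reached that level and 4.49% did so as lower. In 2 members, Cldn7 and Cldn8, every DN-Clim array lay below every WT array, which held for 6.95% of probe sets. In 1, Tjp1, every DN-Clim array lay above every WT array, against 3.20% of probe sets. Of the 9 differences 8 were below 0, as were 57.2% of all differences. Their median was -0.44, and the median over all probe sets was -0.04.

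**Figure D1:**
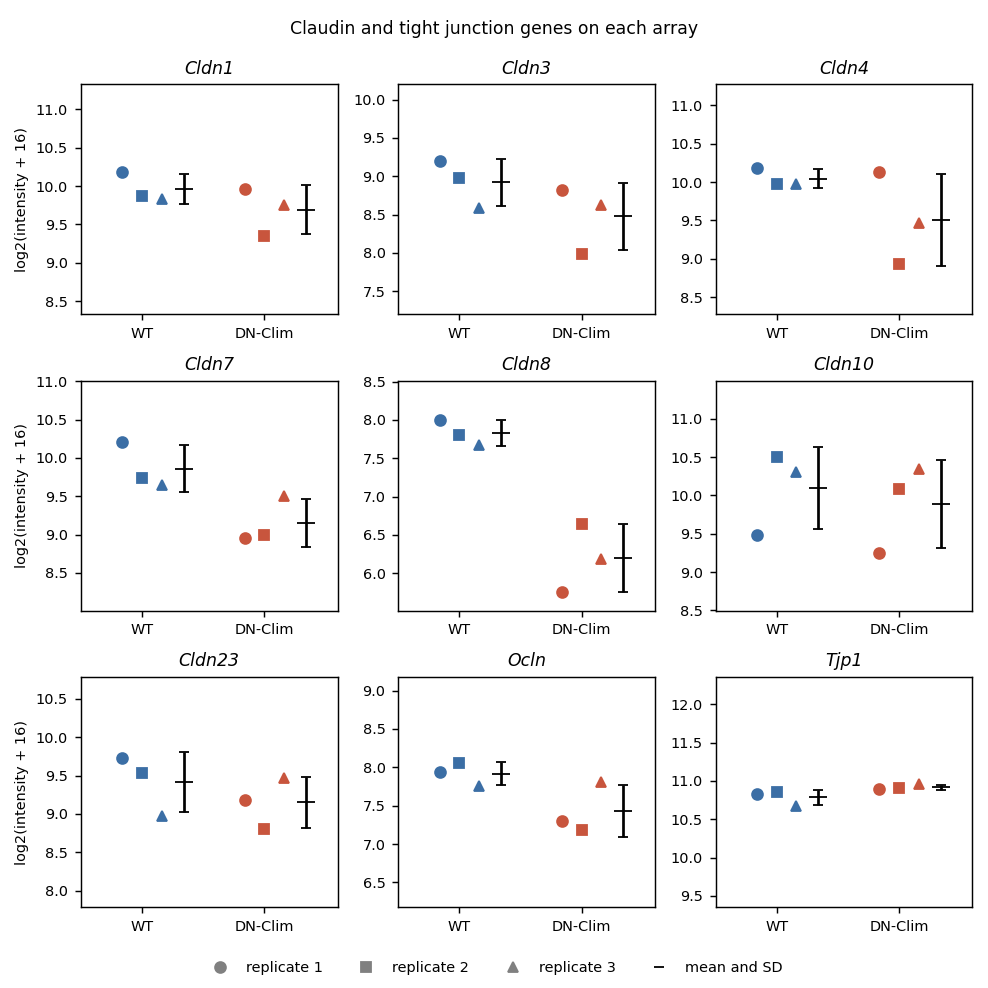
Level of each gene on each of the 6 arrays, as log2(intensity + 16), with WT in blue and DN-Clim in red. Marker shapes give the replicate number, black dashes and bars the mean and SD of 3 arrays, and every panel spans 3 log2 units. The groups are separate for Cldn8 and Cldn7 (DN-Clim lower) and, by a small step, for Tjp1 (DN-Clim higher).

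Cldn7 encodes a claudin found along the lateral membrane as well as in the junction, where it binds the adhesion protein EpCAM. It read 10.20, 9.73 and 9.64 on the WT arrays, against 8.95, 8.99 and 9.51 on those of DN-Clim. The groups did not overlap, but DN-Clim replicate 3 was only a little under the lowest WT array. The difference was -0.71 (SE 0.233, 95% interval -1.23 to -0.19), with a limma adjusted p of 0.72.

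Cldn4 encodes a sealing claudin and, like Cldn3, a receptor of a clostridial enterotoxin. It read 10.19, 9.97 and 9.97 on the WT arrays, against 10.13, 8.93 and 9.46 on those of DN-Clim. Replicate 1 of DN-Clim lay among the WT arrays, and replicates 2 and 3 lay below all of them. The difference was -0.54 (95% interval -1.18 to 0.10, limma adjusted p = 0.921). It was -0.25 without DN-Clim replicate 2, -0.85 without DN-Clim replicate 1 and -0.06 with array weights. Cldn3 read 9.19, 8.98 and 8.58 on the WT arrays, against 8.82, 7.99 and 8.63 on those of DN-Clim. For Cldn3 only DN-Clim replicate 2 was below the WT arrays, and the difference was -0.44 (95% interval -1.03 to 0.15, limma adjusted p = 0.958). Without that array it was -0.20, and with array weights -0.21.

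Cldn3 and Cldn4 lie next to each other in the RefSeq order of protein-coding genes. Taking each gene's values about its own mean, Cldn3 was the member closest to Cldn4, with a root mean square difference of 0.20 over the 6 arrays. That placed it at rank 75 of 17620 genes in closeness to Cldn4, with Cldn1, on another chromosome, at rank 129. In closeness to Cldn3, Cldn4 was at rank 400, behind Cldn1 at 106 and Cldn23 at 313. Cldn13, another claudin near Cldn3 and Cldn4 in the gene order, differed by 0.13 between the groups. It read 6.47 on DN-Clim replicate 2, inside its WT range of 6.25 to 6.66.

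Cldn1 encodes the claudin that the water barrier of the epidermis requires. It read 10.19, 9.87 and 9.83 on the WT arrays, against 9.97, 9.34 and 9.76 on those of DN-Clim, a difference of -0.27 (95% interval -0.76 to 0.22). Cldn23 read 9.73, 9.53 and 8.98 on the WT arrays, against 9.18, 8.80 and 9.47 on those of DN-Clim, a difference of -0.26 (95% interval -0.84 to 0.32). In both genes DN-Clim replicate 2 was the lowest array and the other DN-Clim arrays fell within or just under the WT range. Without replicate 2 the differences were -0.098 for Cldn1 and -0.088 for Cldn23. The limma adjusted p with all 6 arrays was 0.999 for each.

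Cldn10, whose isoforms form pores for cations or for anions, varied more within the groups than between them. It read 9.48, 10.50 and 10.31 on the WT arrays, against 9.25, 10.09 and 10.35 on those of DN-Clim, and replicate 1 was the low array of each group. The SD was 0.54 in WT and 0.57 in DN-Clim, against a difference of -0.20 (95% interval -0.97 to 0.57, limma adjusted p = 0.999). The second Cldn10 probe set gave a difference of -0.19, with the same 2 arrays low.

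Ocln read 7.94, 8.06 and 7.76 on the WT arrays, against 7.30, 7.18 and 7.81 on those of DN-Clim. Replicates 1 and 2 of DN-Clim lay below the WT arrays, while replicate 3 lay just above the lowest of them. The difference was -0.49 (95% interval -0.98 to -0.0006, limma adjusted p = 0.839). Tjp1 was the 1 member with a difference above 0. It read 10.84, 10.85 and 10.67 on the WT arrays, against 10.90, 10.90 and 10.96 on those of DN-Clim, and the step of 0.13 (95% interval -0.25 to 0.51, limma adjusted p = 0.999) was smaller than its SE of 0.17.

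**Figure D2:**
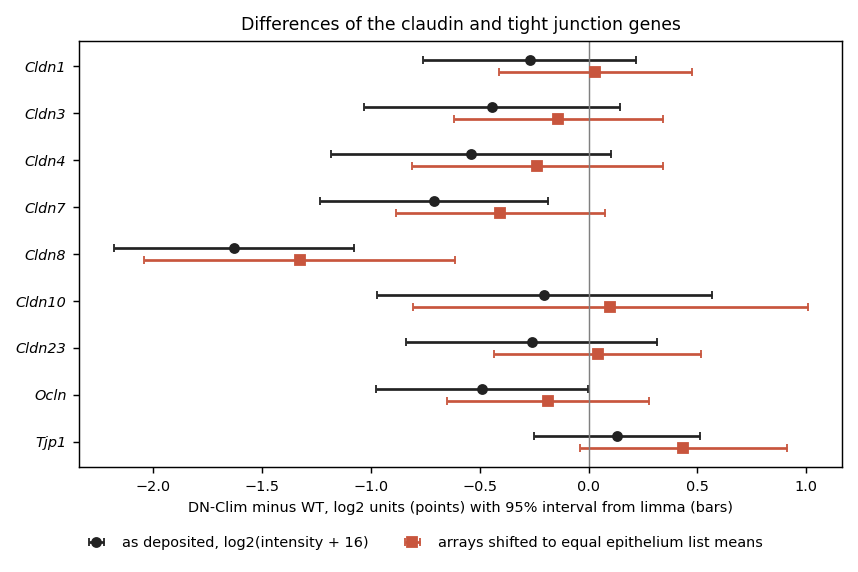
Differences of the 9 genes, DN-Clim minus WT in log2 units, with 95% intervals from limma. Black circles use the deposited values and red squares the arrays after a shift that equalises the mean of 20 epithelial genes. Cldn8 is the lowest in both, at -1.63 and -1.33, and Cldn1, Cldn10 and Cldn23 change sign with the shift.

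The members also differed between the DN-Clim arrays. Replicate 2 was below every WT array for 7 of the 9 members (all but Cldn10 and Tjp1), replicate 1 for 4 (Cldn7, Cldn8, Cldn10 and Ocln) and replicate 3 for 4 (Cldn1, Cldn4, Cldn7 and Cldn8). Over all probe sets the shares below every WT array were 38.8%, 49.95% and 28.2% on DN-Clim replicates 1, 2 and 3. The median of the 9 members relative to their WT means was -0.24, -0.74 and -0.20 on these arrays.

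A list of 20 general epithelial genes (among them keratins, cadherins, desmosome genes and Pax6, and none of the 9) lay in the same order as these medians. Relative to WT its mean was -0.22, -0.61 and -0.08 in the 3 DN-Clim replicates, and 0.17, -0.03 and -0.14 in the 3 WT replicates. The median level of all tested probe sets had the same order, at 8.22, 8.13 and 8.37 on DN-Clim replicates 1, 2 and 3. So did lists of keratocyte and macrophage genes, while the lens list did not, so the order was not particular to epithelial genes. Of the list 19 of 20 genes were below 0 and 0 passed. Its summed intensity was 41823 to 48403 in WT and 31845 to 43708 in DN-Clim, and no epithelial marker was below an intensity of 16 on any array. The epithelial cadherin Cdh1 differed by -0.48 and the corneal keratin Krt12 by -0.03. The part of these epithelial levels in the members' differences was not tested. The shift that follows adds the same amount to every difference, whether or not the gene is epithelial, and so cannot test it.

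With the arrays shifted to an equal mean of this list, the median of the 9 members was -0.14. That shift moves the median of all probe sets from -0.04 to 0.27. Cldn8 was then at -1.33 (95% interval -2.04 to -0.61, limma adjusted p = 0.507), Cldn7 at -0.41, Tjp1 at 0.43, and Cldn1, Cldn10 and Cldn23 at 0.032, 0.099 and 0.041. Relative to its WT mean, Cldn8 was at -2.07, -1.18 and -1.65 on DN-Clim replicates 1, 2 and 3, below the epithelial mean on each array.

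**Figure D3:**
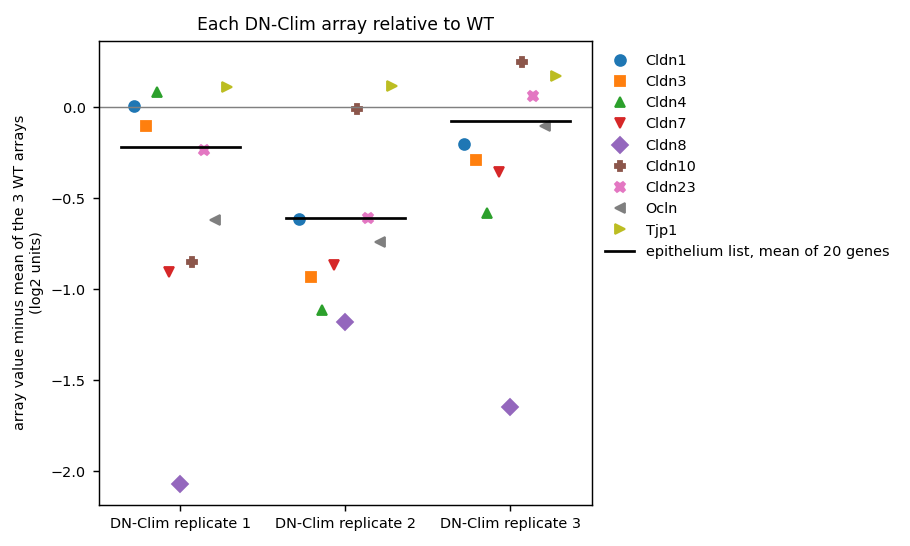
Value of each gene on each DN-Clim array minus the mean of the 3 WT arrays, in log2 units, with black lines for the mean of 20 epithelial genes. Cldn8 is the lowest gene on every array, between -2.07 and -1.18, and the epithelial lines lie at -0.22, -0.61 and -0.08.

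Cryaa, a lens crystallin, read 14.25 and 13.96 on the first 2 DN-Clim arrays and 8.86 on the third, inside its WT range of 8.85 to 9.59. Cldn8 was as low on replicate 3 (-1.65) as on the mean of the other 2 (-1.62). Cldn7 was at -0.91, -0.87 and -0.35 and Ocln at -0.62, -0.74 and -0.11 on the 3 arrays. Both were farther below WT where lens genes were high. With the lens signal of each array fitted as a covariate, Cldn7 was at -0.43, Ocln at -0.20 and Cldn8 at -1.64. Without the covariate they were at -0.71, -0.49 and -1.63. Because the lens signal was high only on DN-Clim replicates 1 and 2, this fit rests largely on replicate 3 against WT. It cannot tell lens tissue from other ways in which these arrays differ, here or for the genes below. The part of lens tissue in these differences was not tested.

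WT replicate 1 was the highest of the 6 arrays for 6 members (Cldn1, Cldn3, Cldn4, Cldn7, Cldn8 and Cldn23). The superficial and conjunctival epithelium list (9 keratins and mucins, 8 below 0, median -0.47) summed to 18440 on that array, to 11202 and 11216 on the other WT arrays and to 7772 to 11562 in DN-Clim. Krt4, a keratin of conjunctival epithelium, read 10.40 on WT replicate 1 against 6.68 and 8.03 on the others. Sums of the 20 general epithelial genes (48403) and of a macrophage list (3245) were also highest on WT replicate 1. The sum of a keratocyte list was not (51298, against 56277 on WT replicate 2). The part of superficial or conjunctival tissue in the members' levels was not tested. Without WT replicate 1 the differences were -1.54 for Cldn8 (limma adjusted p = 0.982), -0.54 for Cldn7 and -0.16 for Cldn1. Cldn10 moved the other way, from -0.20 to -0.51.

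Other marker lists, none of which had a gene below an intensity of 16, were as follows. All 15 keratocyte and stroma genes were below 0 (median -0.999, sums 48942 to 56277 in WT and 17283 to 49326 in DN-Clim). Of 14 vascular endothelium genes 11 were below 0 (median -0.69) and 1, Emcn, passed, where 0.0128% of all probe sets did. In 8 of the 14 every DN-Clim array lay below every WT array, against 6.95% of all probe sets. Relative to WT these genes had medians of -0.58, -0.75 and -0.54 on DN-Clim replicates 1, 2 and 3. Their sums were 6345 to 6702 in WT and 3621 to 4708 in DN-Clim. All 11 macrophage genes were below 0 (median -0.32, sums 2796 to 3245 in WT and 1962 to 2302 in DN-Clim). Lists above 0 were the retina and pigment epithelium, with all 10 matched genes (median 0.94, sums 2687 to 6142 in WT and 3891 to 14413 in DN-Clim), and skeletal muscle, with 7 of 8 (median 0.53, sums 2099 to 2554 in WT and 2931 to 6306 in DN-Clim). The corneal endothelium list, whose cells also have junctions, had 4 of 7 genes below 0 (median -0.10, sums 6887 to 8556 in WT and 7665 to 9059 in DN-Clim). The cornified epidermis list had 3 of 7 below 0 (median 0.04, sums 3202 to 3832 in WT and 2093 to 2986 in DN-Clim). Their part in the members' differences was not tested.

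Because DN-Clim replicate 3 lacked the lens signal, the fit was also made without it and with it alone against WT. These fits share the 3 WT arrays. Without replicate 3, Cldn8 fell by 1.62 (SE 0.26, limma adjusted p = 0.0248), the 1 member of 9 that passed, where 2.06% of all probe sets did and 1.52% did so as lower. Cldn7 was at -0.89 (adjusted p = 0.07) and Ocln at -0.68 (adjusted p = 0.081). With replicate 3 alone, Cldn8 fell by 1.65 (SE 0.202, limma adjusted p = 0.0442) and was again the 1 member that passed, against 0.337% of probe sets. There Cldn7, Ocln and Cldn4 had limma adjusted p-values of 0.456, 0.79 and 0.183. In this last fit a single DN-Clim sample is assumed to vary like WT. Leaving out DN-Clim replicate 1 or 2 instead gave -1.41 and -1.86 for Cldn8, with limma adjusted p-values of 0.511 and 0.0829. Leaving out WT replicate 1, 2 or 3 gave -1.54, -1.64 and -1.71 for Cldn8, with limma adjusted p-values of 0.982, 0.424 and 0.649.

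Of the 16 other claudins 6 were below 0, 0 passed, and the median was 0.03. Their lowest were Cldn24 and Cldn5, the claudin of blood vessel endothelium, both at -0.30. With the epithelium list equalised these were at 0.0047 and 0.0063, and Cldn24 was at 0.48 with DN-Clim replicate 3 alone. At the other end were Cldn2, a claudin that forms cation pores, at 0.25 and Cldn14 at 0.15. In Cldn5 all DN-Clim arrays (8.33, 7.90 and 8.39) lay below the WT arrays (8.48 to 8.54). Relative to WT the median of these claudins was -0.08, -0.36 and 0.51 on DN-Clim replicates 1, 2 and 3, replicate 3 being the high array. Cldn17, the neighbour of Cldn8 in the RefSeq gene order, differed by -0.01 (95% interval -0.66 to 0.63, limma adjusted p = 0.999).

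Among 12 other junction membrane proteins 8 were below 0 and 0 passed, with a median of -0.02. Marveld2, which encodes tricellulin, a protein of the corners between cells, read 8.92, 8.51 and 8.10 on the WT arrays, against 7.62, 7.44 and 7.89 on those of DN-Clim. All its DN-Clim arrays were below its WT arrays, and the difference was -0.86 (95% interval -1.41 to -0.31, limma adjusted p = 0.622). Marveld2 is the gene next to Ocln in the RefSeq order. F11r, which encodes the adhesion molecule JAM-A, was at -0.40. Jam2, of the same family, was at 0.39 and Ildr2 at 0.15.

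Of 14 matched scaffolds 9 were below 0 and 0 passed, with a median of -0.06. Cgnl1, which encodes paracingulin, a linker to the cytoskeleton, was at -0.60 with its DN-Clim arrays (9.64, 8.74 and 9.38) below the WT arrays (9.78 to 9.93). Mpdz, a protein of many PDZ domains, was at -0.29. Magi1, another scaffold with PDZ domains, was at 0.67 and Cgn, cingulin, at 0.27. Magi1 was high on the first 2 DN-Clim arrays (9.87 and 10.04), as the lens genes were, and inside its WT range on the third (9.02). Without replicate 3 it was at 0.98 and passed (limma adjusted p = 0.0233), where 2.06% of all probe sets did. With all 6 arrays and the lens signal as a covariate it was at 0.23. Of 7 polarity genes 4 were below 0 and 0 passed (median -0.08), from Pard3b and Pard3 at -0.26 and -0.25 to Pard6b and Prkcz at 0.19 and 0.22.

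Across these 4 lists, 5 of 49 matched genes (Cldn5, Marveld2, Cgnl1, Mpdz and Amot) had every DN-Clim array below the WT arrays and 1 (Sympk) above them, beside the 6.95% and 3.20% of all probe sets. At an unadjusted limma p under 0.05 there were 2 lower genes (Marveld2 and Cgnl1) and 1 higher (Magi1) of the 49. Over all probe sets 4.49% reached that level as lower and 5.94% in either direction, a similar share.

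**Figure D4:**
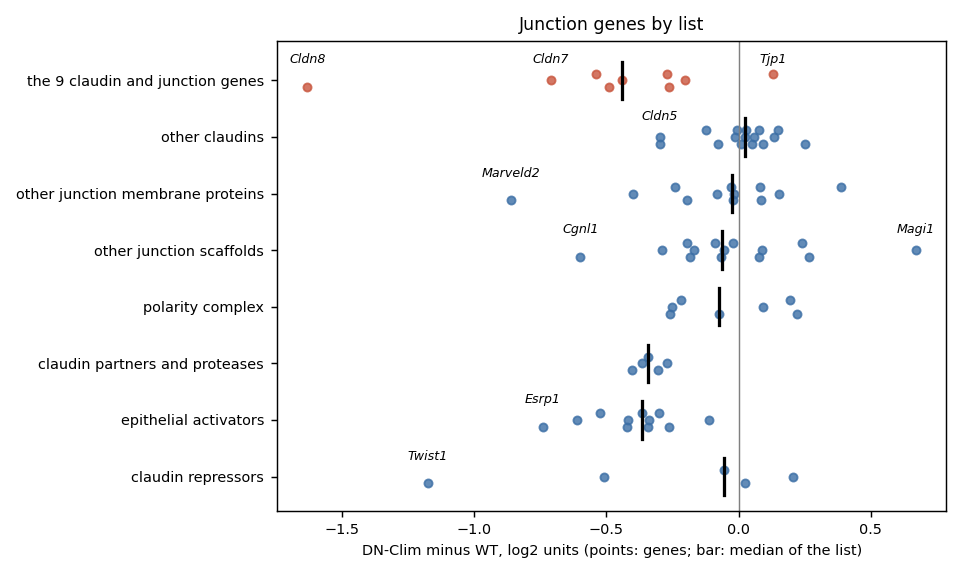
Differences of single genes, DN-Clim minus WT in log2 units, for the 9 claudin and junction genes (red) and 7 other lists (blue), with a black bar at each list's median. The medians of the other claudins, membrane proteins, scaffolds and polarity genes lie between -0.08 and 0.03, and those of the claudin partners and the epithelial activators at -0.34 and -0.37.

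All 5 matched partners and proteases were below 0 (median -0.34), and 0 passed. Epcam, which encodes the partner of claudin-7, was at -0.34, the membrane protease Prss8 at -0.40 and the protease inhibitor Spint1 at -0.37. All 11 transcription and splicing factors that promote epithelial genes were below 0 (median -0.37), and 0 passed. Esrp1, an epithelial splicing factor, was at -0.74 (limma adjusted p = 0.642) and Grhl1, a Grainyhead factor, at -0.61 (adjusted p = 0.802). In 3 of the 11, these 2 among them, every DN-Clim array lay below every WT array, against 6.95% of all probe sets. Without DN-Clim replicate 3, Esrp1 was at -0.90 and passed (limma adjusted p = 0.0469), where 2.06% of all probe sets did. On DN-Clim replicates 1, 2 and 3 the median of these factors relative to WT was -0.29, -0.73 and 0.03, beside -0.22, -0.61 and -0.08 for the epithelial mean.

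Of the 5 factors known to repress claudins 3 were below 0 and 0 passed, with a median of -0.05. Twist1 was at -1.17 and Snai2 at -0.51, while Zeb2 was at 0.21 and Snai1 at 0.03. Twist1, a mesenchymal factor, read 8.88 and 8.38 on the first 2 DN-Clim arrays and 10.29 on the third, inside its WT range of 9.97 to 10.57. Without replicate 3 it was at -1.73 and passed (limma adjusted p = 0.0152), where 2.06% of all probe sets did. With the lens signal as a covariate it was at -0.34. The keratocyte genes had medians of -1.07, -1.85 and -0.06 on the same arrays, and their part in the Twist1 value was not tested.

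Genes with the profile most like each member were found among 17620 others by the root mean square difference over the 6 arrays, each gene taken about its own mean. With 6 arrays many genes come close by this measure, and nothing follows from it about function. Cldn7 was closest to Grhl1 (0.057) and Filip1l (0.10), where its own spread about its mean was 0.434. Ocln was closest to Zfyve21 and P4ha1, Cldn1 to Nfic and Nectin4, Cldn3 to the desmosomal cadherin Dsg3 and to Fgfr2, and Cldn4 to Adtrp and Foxc1. Cldn8, with a spread of 0.861, was closest to Abca9 (0.213) and to the endothelial lectin Clec14a (0.238). Cldn10 was closest to Metrn and C1ql4, Cldn23 to Cdc42ep2 and Parm1, and Tjp1 to Zfp950 and Marf1. Among the members themselves, the closest pairs were Cldn1 with Cldn3 (0.153) and Cldn3 with Cldn23 (0.189), while Cldn8 was 0.561 from its nearest member, Cldn7.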

How the data were processed

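Each deposited value is a linear intensity per probe set, made by the authors with Affymetrix Expression Console 1.1 and PLIER, per the submitters' processing notes. RNA was amplified and labelled with NuGEN kits, per the labels' protocols. How background and array differences were treated, and the genome build, is not given in the sources used here. Median intensity per array ran from 230.8 to 280.9, and between 2.26% and 3.23% of values lay below 16. Having 3 arrays a group limits precision.

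Values were put on the scale log2(intensity + 16). Array medians there differed by 0.237, under the centring limit of 0.5, so the arrays were left as deposited. The 23410 probe sets that the platform table pairs with a gene (21789 with 1 symbol, 1621 with several) were fitted with limma 3.58.1 in R 4.3.3 (lmFit, eBayes), with Benjamini-Hochberg adjustment over all of them; the other 12147 have no name here and were not tested. The fit was also run on simulated data with planted changes and independent noise. That simulation held no unlike arrays such as those of DN-Clim, so it cannot vouch for the calls made here.

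The members and all 18 gene lists were chosen with earlier results of these data known. Lists other than the members were described by counts and medians, and 200 of 208 genes were matched. The others are not reported here. Named besides the members were, in each junction and regulator list, genes past the threshold and the 2 largest differences each way, and for each member the 2 genes most like it, leaving out predicted loci and olfactory receptors. Other genes named from the lists (Epcam, Cldn13, Cldn17, Amot, Sympk, Krt4, Emcn) were chosen after their values were seen. Array weights used limma's gene-by-gene method, since the default estimate did not converge.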

Additional observations from a re-analysis of the deposited data

How the results depend on the processing

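Of 161 comparisons of the 9 members with 19 alternatives, 148 left sign and call as they were, 5 turned into a pass, 0 lost one and 8 changed sign without a pass. Cldn8 was negative in every alternative that tested it, from -1.94 with array weights to -1.17 with an offset of 64. It was not tested among the brighter probe sets, nor was Ocln. Signs changed for Cldn1 (0.032), Cldn10 (0.099) and Cldn23 (0.041) with the epithelium list equalised, for Cldn10 (0.082) and Cldn23 (0.017) with the lens list as a covariate, for Cldn10 (0.25) and Cldn23 (0.061) with DN-Clim replicate 3 alone, and for Cldn10 without DN-Clim replicate 1, where leaving out single arrays gave -0.51 to 0.12. The cause was not tested. Members past the threshold were 3 with array weights (Cldn7, Cldn8 and Ocln), where 8.80% of all probe sets passed and DN-Clim replicate 1 had a weight of 3.06, replicate 2 of 0.385 and replicate 3 of 0.199, and 1 (Cldn8) with DN-Clim replicate 3 alone. Leaving out single arrays gave 0 to 1 members, a median of -0.57 to -0.25 and 0 to 483 probe sets past the threshold, the highest without DN-Clim replicate 3. The median over the members was -0.14 with the epithelium list equalised, -0.198 with the lens list as a covariate and -0.202 with DN-Clim replicate 3 alone, against -0.44 as reported. Probe sets past the threshold were 1 with quantile normalization, 0 with the epithelium list equalised, 0 with all probe sets of the table, 5 with a trended robust prior, 2059 with array weights and 79 with DN-Clim replicate 3 alone. Same-numbered arrays correlated at 0.02, -0.21 and -0.44 in their deviations from the group means, and differently numbered ones at -0.28 to 0.45. With 3 arrays a group these values cannot settle whether the replicate numbers pair the samples. With the replicate block 9 probe sets passed and no member did, Cldn8 at an adjusted p of 0.0796. A dim gene such as Cldn8 depends on the offset: its difference was -1.88 with an offset of 1.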
